A study of Mus musculus with 14 samples.

Results

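The CXC chemokines measured in visceral fat were Cxcl1, Cxcl9, Cxcl10, Cxcl12, Cxcl13, Cxcl14 and Cxcl16. They were found by gene symbol, as 7 of the 23282 genes in the read count table of epididymal white adipose tissue (eWAT). All libraries came from male C57BL/6J mice labelled wild type, which had been purchased at 4 weeks of age. The control group received a normal diet (standard chow) and the Western diet (WD) group a diet with more fat and added cholesterol, both for 20 weeks. Batch 1 held 4 control and 5 WD libraries, and batch 2 held 5 control libraries on the normal diet. No WD library was in batch 2, so that in a comparison of WD libraries with batch 2 controls the diet and the batch cannot be told apart.

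Chemokines are small secreted proteins that attract leukocytes through G protein-coupled receptors, and in the CXC family one residue separates the first pair of cysteines. Members with a Glu-Leu-Arg motif before these cysteines, such as Cxcl1, mainly attract neutrophils, whereas Cxcl9 and Cxcl10 are induced by interferon gamma and attract activated T cells. Cxcl12 and Cxcl14 are expressed in many resting tissues, Cxcl13 guides B cells into lymphoid follicles, and Cxcl16 is made as a membrane protein that also binds oxidised lipids. In obese fat, macrophages, T cells and B cells accumulate around adipocytes, and several chemokines of this family are known to be expressed there.

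Cxcl1, Cxcl9, Cxcl10 and Cxcl13 lay on chromosome 5 in the mm10 positions of the count table, with Cxcl9 (92321331 to 92328079) and Cxcl10 (92346639 to 92348889) as neighbours on the minus strand. Cxcl1 (90891245 to 90893115) and Cxcl13 (95956939 to 95961068) were on the plus strand of that chromosome. Cxcl12 was on chromosome 6 (117168535 to 117181368, plus strand), Cxcl14 on chromosome 13 (56288643 to 56296551, minus strand) and Cxcl16 on chromosome 11 (70454234 to 70459984, minus strand). All were annotated as protein coding. In GENCODE annotation of GRCm38, Cxcl10 lay inside Art3 on the opposite strand, and Cxcl16 overlapped Zmynd15, also on the opposite strand. The strand used in counting was not given in the sources used here, so that reads of these pairs may be shared. Art3 had counts in all 14 libraries, at most 2345, whereas Zmynd15 had counts in 4 libraries and at most 139.

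RefSeq promoters of GRCm38.p6 were matched by symbol for 6 of the 7 genes, all but Cxcl16. The 250 bases before the start of transcription are shown for the chemokines that are known targets of inflammatory transcription factors and for Cxcl13, the B cell attractant on the same chromosome. They come from chr5:90890995-90891244 and chr5:95956689-95956938 on the plus strand and from chr5:92328080-92328329 and chr5:92348890-92349139 on the minus strand, each printed 5′ to 3′ along the gene. Capitals mark matches, on either strand, to a kappaB-like motif (GGGA, any 4 bases, CC), an interferon-stimulated response element-like motif (TTTC, any 2 bases, TTTC), a gamma-activated site-like motif (TTCNNNGAA) or a TATA box (TATAAA).
Cxcl1: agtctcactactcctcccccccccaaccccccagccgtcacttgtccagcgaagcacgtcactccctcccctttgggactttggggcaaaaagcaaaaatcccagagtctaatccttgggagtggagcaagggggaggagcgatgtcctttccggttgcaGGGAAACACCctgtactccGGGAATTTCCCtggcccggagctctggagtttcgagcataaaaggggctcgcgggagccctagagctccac
Cxcl9: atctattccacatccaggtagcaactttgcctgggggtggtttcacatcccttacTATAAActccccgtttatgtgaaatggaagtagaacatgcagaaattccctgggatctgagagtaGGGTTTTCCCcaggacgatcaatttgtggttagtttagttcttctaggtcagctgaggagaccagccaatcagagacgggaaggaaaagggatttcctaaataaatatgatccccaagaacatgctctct
Cxcl10: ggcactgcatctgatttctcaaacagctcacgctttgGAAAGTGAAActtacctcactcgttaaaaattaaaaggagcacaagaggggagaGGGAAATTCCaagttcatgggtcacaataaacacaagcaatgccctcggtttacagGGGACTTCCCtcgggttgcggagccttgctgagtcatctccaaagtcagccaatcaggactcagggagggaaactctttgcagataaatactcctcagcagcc
Cxcl13: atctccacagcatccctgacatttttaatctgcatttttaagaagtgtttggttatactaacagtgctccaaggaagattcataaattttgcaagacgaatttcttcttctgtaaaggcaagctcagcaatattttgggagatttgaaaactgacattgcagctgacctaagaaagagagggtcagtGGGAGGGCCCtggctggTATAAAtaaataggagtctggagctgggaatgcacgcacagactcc
The kappaB-like motif was present in these 4 promoters and absent from those of Cxcl12 and Cxcl14, compared with 17.3% of 27025 promoter windows of the same length. In Cxcl1 it occurred 3 times, with 2 of the matches overlapping on opposite strands. The response element-like motif was found in Cxcl10, 213 bases before the start, and in Cxcl14 (3.04% of all windows), and the gamma-activated site-like motif in Cxcl14 (7.18%). TATAAA stood 46 bases before the start of Cxcl13 and 195 bases before that of Cxcl9 (13% of all windows). These matches describe letters in a window and not binding by a factor.

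The libraries held between 10278970 and 13712254 counts. A level of 3 counts, chosen here as the floor, corresponded to between 0.219 and 0.292 CPM, the count scaled to a common library total, without TMM factors. QuantSeq reads come from the 3′ ends of transcripts, so that counts do not grow with the length of a gene. Levels of different genes are set side by side on that basis. Reads that overlapping genes share, or that are counted at more than 1 gene, can still affect such an order. CPM values below were scaled by TMM factors over the 14 libraries. The false discovery rate (FDR) is the p-value of edgeR's quasi-likelihood test adjusted over all genes tested, and a gene was called where it was under 0.05. Control replicates 1 and 4 of batch 1 stood apart from the other libraries. Replicate 1 held 44500 CPM of 8 epididymis genes summed, against at most 22.1 CPM in any other library, and 1956 CPM of 5 adipocyte genes (adiponectin among them), against at least 10430 CPM elsewhere. Replicate 4 had counts in 7999 genes, against 10903 to 13780 in the other libraries. Tests of the 7 genes that rest on the batch 1 controls are therefore also given without these 2 doubted libraries, a choice made after the values were seen.

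The order of the 7 genes by median level over the 14 libraries was Cxcl9 (41.3 CPM), Cxcl12 (30.7), Cxcl16 (16.5), Cxcl13 (4.96), Cxcl14 (2.97), Cxcl10 (0.602) and Cxcl1 (0). Neighbours at the top were not separated within libraries, as Cxcl9 exceeded Cxcl12 in 10 of 14 libraries and Cxcl12 exceeded Cxcl16 in 10 of 14. Cxcl16 was above Cxcl13 in 12 of 14 libraries, the most of any neighbouring pair. Below that, Cxcl13 exceeded Cxcl14 in 9 libraries and Cxcl14 exceeded Cxcl10 in 8. The order changed with the group. In the WD group Cxcl16 stood second with a median of 38.55 CPM, above Cxcl12 at 32.9 CPM in 2 of 5 libraries only, whereas in the batch 2 controls Cxcl12 (28.4 CPM) exceeded Cxcl16 (10.7 CPM) in 5 of 5 libraries. The summed level of the 7 genes had a median of 154 CPM in the WD group (93.1 to 181), 85.9 CPM in the batch 1 controls (25.4 to 101.5) and 105 CPM in the batch 2 controls (67.4 to 120), so that the ranges overlapped.

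**Figure D1:**
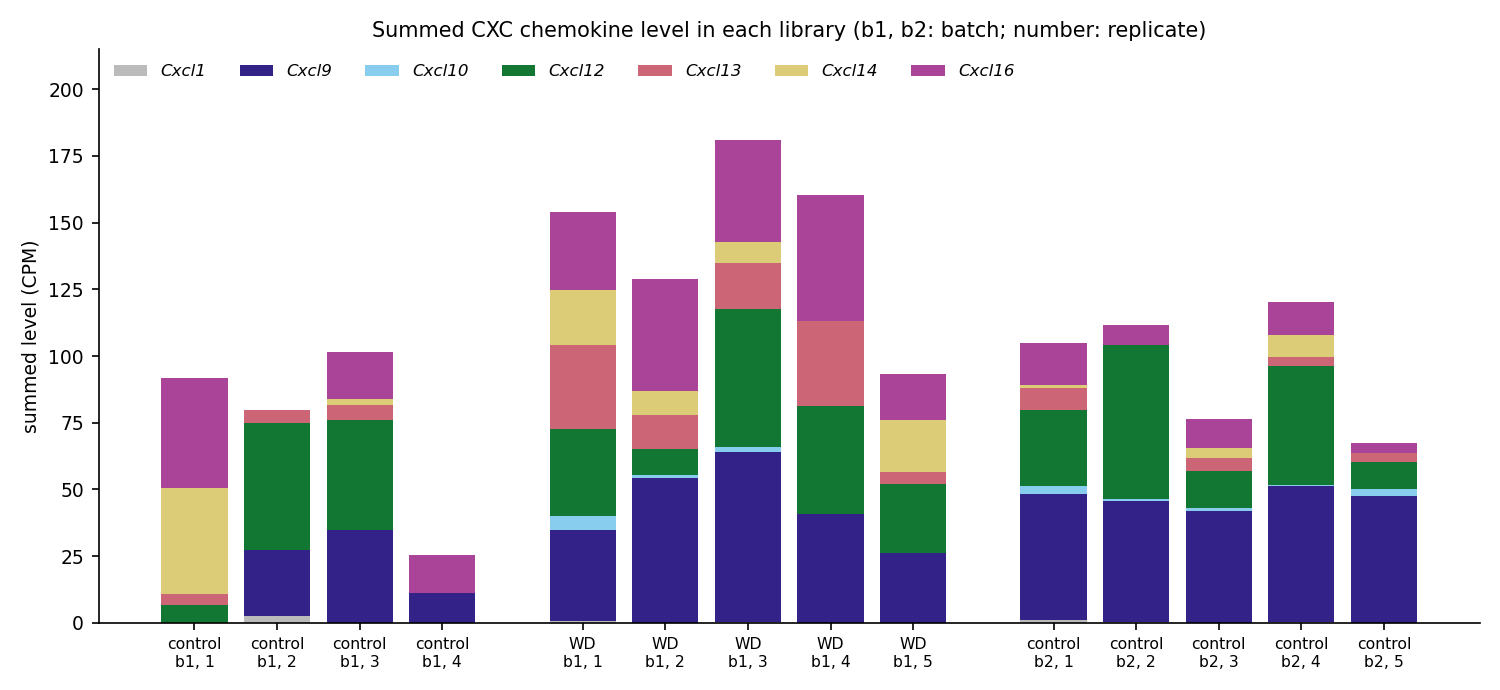
Bars show, for each of the 14 libraries, the level in CPM (y axis) of the 7 CXC chemokines stacked in the colours of the key. The bar of control replicate 1 of batch 1 is mostly Cxcl14 and Cxcl16 with no Cxcl9, the other bars are mostly Cxcl9, Cxcl12 and Cxcl16, and control replicate 4 of batch 1 had the smallest sum (25.4 CPM).

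Cxcl1, the neutrophil attractant, was at or near 0 in most libraries. Its counts were 0, 31, 0 and 0 in control replicates 1 to 4 of batch 1, 11, 0, 4, 0 and 0 in WD replicates 1 to 5, and 12, 3, 0, 2 and 0 in control replicates 1 to 5 of batch 2. Thus 8 of the 14 libraries had no count, and edgeR's filter on low counts left it out of every comparison. Levels of the groups overlapped. Mean log2(CPM + 1) in the WD group minus that in the batch 1 controls was -0.22 (exact permutation p = 0.881), and -0.69 without both doubted controls (exact permutation p = 0.286). Neutrophil markers, of which 5 of 6 were in the table, summed to between 144 and 313 CPM in the batch 1 controls, 55.9 and 160.5 CPM in the WD group and 39.1 and 140 CPM in the batch 2 controls, and their part in the level of Cxcl1 was not tested.

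Cxcl9, which attracts activated T cells through Cxcr3, had the highest median level of the 7 genes, with similar means in batch 2 controls and WD libraries and a lower mean in batch 1 controls. Its counts were 0, 291, 418 and 150 in the batch 1 controls, 481, 511, 873, 506 and 311 in the WD group, and 666, 469, 551, 666 and 470 in the batch 2 controls. The mean levels were 17.65 ± 15.15 CPM (SD, n = 4), 43.8 ± 15.3 CPM (n = 5) and 46.6 ± 3.41 CPM (n = 5), in that order. Control replicate 1 of batch 1 alone had no count, and the 5 batch 2 controls lay within 41.8 to 51.1 CPM, the narrowest spread of the abundant genes. Between WD and batch 2 controls the log2 fold change was -0.09 (95% interval -0.64 to 0.46, FDR 0.933), so that a difference above 0.64 on this scale in either direction lay outside the interval.

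Within batch 1 Cxcl9 was 1.32 higher in the WD group on the log2 scale (SE 0.99, 95% interval -0.82 to 3.47), and edgeR's test did not pass (FDR 0.9999). The exact permutation test of log2(CPM + 1), not adjusted for the 28 such tests made here, gave p = 0.0238. Leaving out control replicate 1 of batch 1, the library with no Cxcl9 count, brought this exact permutation p to 0.0893, and it was under 0.05 in 1 of the 9 tests that left out a library. Without control replicates 1 and 4 of batch 1 the difference in mean log2(CPM + 1) went from 2.05 to 0.50 (exact permutation p = 0.238). The 2 sets of normal diet libraries were also set against each other. All 5 batch 2 controls were above all 4 batch 1 controls, which held for 4.53% of the 12106 genes tested in that comparison. The log2 fold change was 1.39 (SE 0.96, FDR 0.855) and the exact permutation p was 0.00794, the smallest that this design can give. That p was at most 0.0286 with any single library left out, and without both doubted controls it was 0.0476 with a difference of 0.65.

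Cxcl10, the neighbour of Cxcl9 and a ligand of the same receptor, had no count in any batch 1 control. It had 71, 9, 23, 0 and 4 counts in the WD group and 41, 9, 17, 4 and 26 counts in the batch 2 controls. Means were 1.60 ± 2.02 CPM (SD, n = 5) and 1.60 ± 1.13 CPM (n = 5), and the log2 fold change between these groups was 0.00 with a wide interval (-2.96 to 2.96, FDR 0.9995). With 3 counts put in place of 0 in each batch 1 control, the mean in the batch 2 controls was 6.28-fold that of the batch 1 controls. That in the WD group was 6.27-fold, with 1 of the 5 WD libraries itself at 0. Since counts within the WD group ran from 0 to 71, these ratios are not a lower bound on the difference between groups. The batch 2 controls all lay above the batch 1 controls, as they did for 4.53% of the 12106 genes tested (exact permutation p = 0.0159, edgeR FDR 0.452). Without both doubted controls the exact permutation p was 0.0952. In batch 1 the gene was below edgeR's filter. The exact permutation p for the WD group was 0.0873 with all 4 controls, 0.0476 with a pseudocount of 0.1 CPM, and 0.238 without both doubted controls.

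The receptor of both genes, Cxcr3, had 36, 0, 183, 76 and 0 counts in WD replicates 1 to 5, none in the batch 1 controls and 3 counts in 1 of the batch 2 controls. It had counts in too few libraries to pass the filter and was not tested. Summed T cell markers (6 genes) ranged from 7.34 to 33.0 CPM in the WD group, 0 to 7.51 CPM in the batch 1 controls and 1.67 to 8.65 CPM in the batch 2 controls, and were highest in WD replicate 3, which also had the most Cxcr3 and Cxcl9. The 4 dendritic cell markers summed to 3.3 to 11.5 CPM, 0 to 4.7 CPM and 5.6 to 9.8 CPM in the same order. WD replicate 2, with 54.4 CPM of Cxcl9 and no Cxcr3 count, had the lowest T cell sum of the WD group (7.34 CPM). The batch 2 controls, with T cell sums of at most 8.65 CPM, had 41.8 to 51.1 CPM of Cxcl9. The part of either cell type in these levels was not tested. Ifng, the inducer of Cxcl9 and Cxcl10, had no count in any of the 14 libraries.

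**Figure D2:**
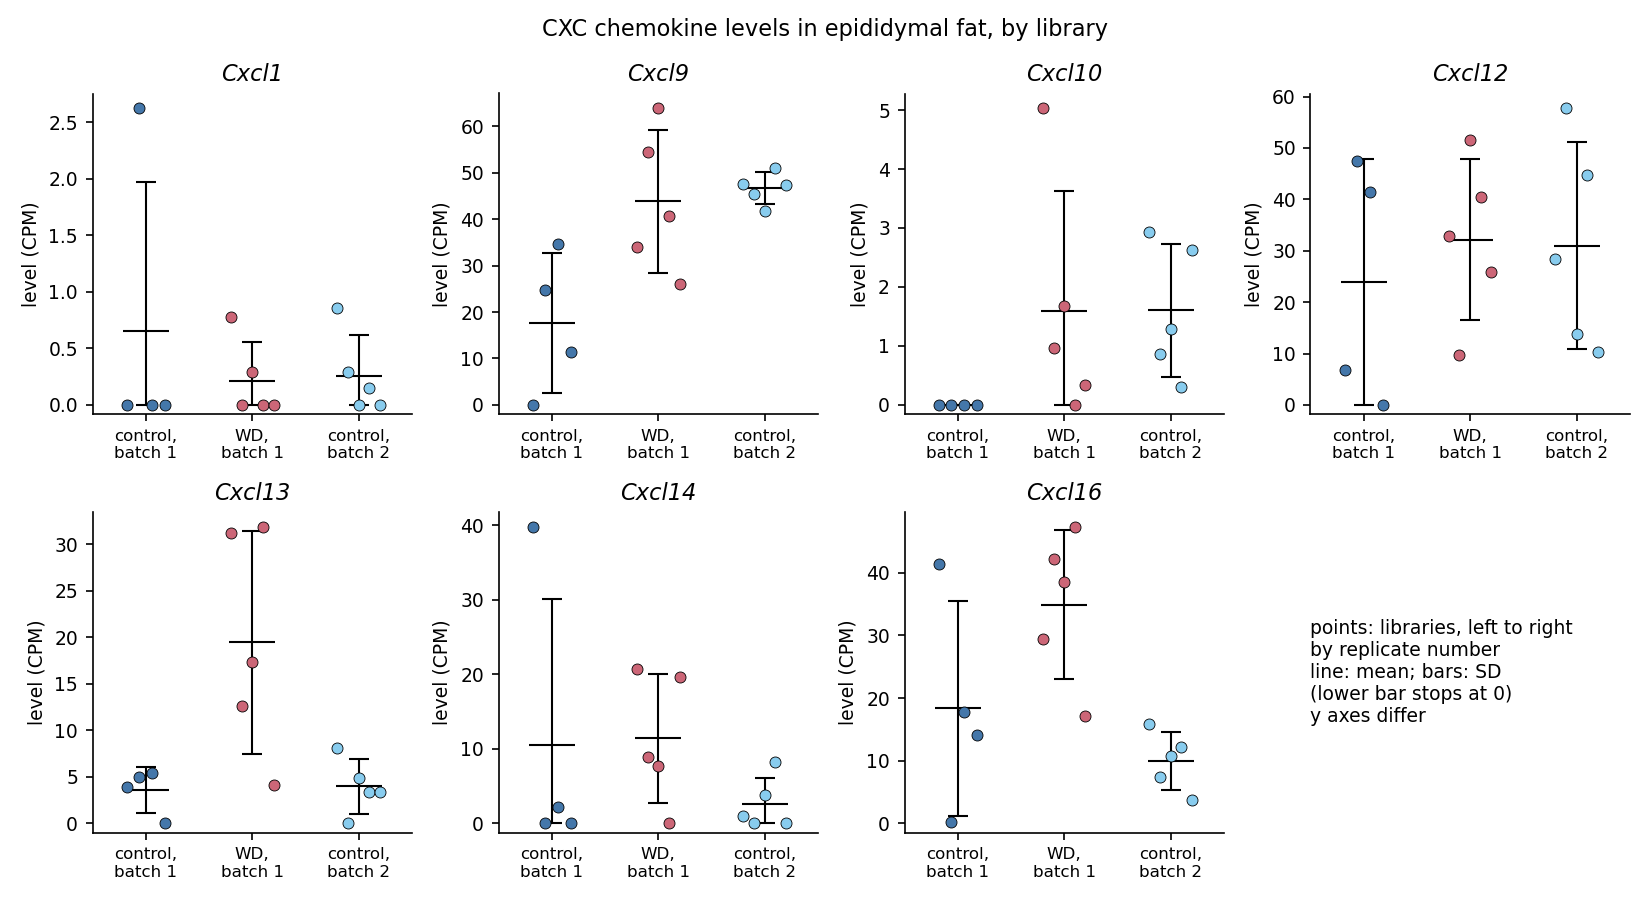
Each panel plots the level of 1 gene in CPM (y axis, scales differ between panels) for the batch 1 controls (n = 4), the WD group (n = 5) and the batch 2 controls (n = 5), with 1 point per library and the mean ± SD as lines. Cxcl13 was above all 9 controls in 4 of 5 WD libraries, and for Cxcl16 all 5 WD libraries lay above all 5 batch 2 controls. Control replicates 1 and 3 of batch 1 (41.3 and 17.7 CPM of Cxcl16) were above WD replicate 5 (17.1 CPM).

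Cxcl12, the stromal chemokine that retains Cxcr4-bearing cells, varied widely within each group, and the group means lay within that spread. Its counts were 70, 560, 501 and 0 in the batch 1 controls, 465, 92, 706, 504 and 310 in the WD group, and 398, 597, 182, 584 and 102 in the batch 2 controls. Mean levels were 23.94 ± 23.99 CPM, 32.2 ± 15.7 CPM and 31.0 ± 20.2 CPM (SD, n = 4, 5 and 5). The groups overlapped in every comparison. The log2 fold change was 0.06 between WD and batch 2 controls (95% interval -0.95 to 1.06, FDR 0.979) and 0.42 within batch 1 (SE 1.10, FDR 0.9999). The interval within batch 1 ran from -1.97 to 2.80, and included 2-fold differences in both directions, and without control replicate 4, which had no count, the estimate was -0.02 and without both doubted controls -0.46. Markers of stromal progenitors (5 genes), which are a known source of Cxcl12, summed to 2118 to 4267 CPM in the WD group, 933 to 3087 CPM in the batch 1 controls and 1480 to 2869 CPM in the batch 2 controls. The sums of the 4 endothelial markers were 43.3 to 107 CPM, 29.8 to 199.9 CPM and 57.2 to 157 CPM in the same order, and those of the 5 mesothelial markers 14.6 to 125.5 CPM, 13.6 to 153 CPM and 40.6 to 112 CPM. The part of these cells in the level of Cxcl12 was not tested.

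Cxcr4, the receptor of Cxcl12, was the only one of the 30 other pathway genes that passed the test in any comparison. It was 1 of 20 tested against the batch 2 controls, a share not above the 6.4% of all 12070 genes called there. It had 158, 64, 445, 383 and 96 counts in the WD group, 24, 25, 10, 102 and 31 in the batch 2 controls, and 42, 18, 66 and 0 in the batch 1 controls. Its log2 fold change between WD and batch 2 controls was 2.495 (SE 0.69, FDR 0.0389), where diet and batch cannot be told apart, and within batch 1 it was 2.62 (SE 1.28, FDR 0.9999). The ranges overlapped in the first of these, since WD replicate 2 (6.81 CPM) was below control replicate 4 of batch 2 (7.82 CPM). Ackr3, which scavenges Cxcl12, had 11.8 ± 8.68 CPM in the WD group (SD, n = 5), 30.68 ± 21.85 CPM in the batch 1 controls (n = 4) and 32.4 ± 5.57 CPM in the batch 2 controls (n = 5). Its FDR was 0.1235 for WD against the batch 2 controls and 0.9999 within batch 1.

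Cxcl13, the ligand of Cxcr5 on B cells, was higher in 4 of the 5 WD libraries than in any control. Its counts were 40, 59, 66 and 0 in the batch 1 controls, 440, 119, 237, 396 and 50 in the WD group, and 114, 0, 65, 44 and 34 in the batch 2 controls. The authors' log2 values were 2.37, 2.58, 2.70 and 0 in the batch 1 controls, 5.00, 3.75, 4.19, 5.03 and 2.37 in the WD group and 3.19, 0, 2.56, 2.13 and 2.15 in the batch 2 controls. WD replicates 1 to 4 were the higher ones, and WD replicate 5 lay among the controls. Mean levels were 19.4 ± 12.0 CPM in the WD group (SD, n = 5), 3.59 ± 2.48 CPM in the batch 1 controls (n = 4) and 3.98 ± 2.95 CPM in the batch 2 controls (n = 5). The 2 sets of controls differed by 0.09 on the log2 scale (SE 1.61, FDR 0.998), an estimate whose interval ran from -3.43 to 3.603.

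Within batch 1 the log2 fold change of Cxcl13 was 2.39 (SE 1.22, 95% interval -0.26 to 5.04, FDR 0.9999), and the ratio of the means was 5.41. In that comparison 5 of the 7 genes were tested and 0 were called, as were 0% of the 12157 genes tested by edgeR, although 628 genes had an unadjusted p under 0.05 and DESeq2 called 114 genes and limma-voom 0. Against the batch 2 controls it was 2.28 (SE 0.81, 95% interval 0.56 to 4.01, FDR 0.123), and against all 9 controls it was 2.33 (SE 0.94, FDR 0.471). The exact permutation p-values, which are not adjusted, were 0.0317 in batch 1, 0.0238 against the batch 2 controls and 0.0035 against all controls. With a pseudocount of 0.1 CPM the exact permutation p against all controls was 0.02997, and the others were unchanged. Each of these comparisons shared the same 5 WD libraries, and since 5 of the 9 controls were from batch 2 and no WD library was, the permutation over all controls did not take the batch into account. In an edgeR fit of all 14 libraries with a batch term the log2 fold change was 2.396 (FDR 0.6565). With a single library left out, the p against all controls stayed at or below 0.0266 in 14 of 14 tests, whereas in batch 1 it was under 0.05 in 1 of 9 tests and reached 0.0893 without control replicate 4. Against the batch 2 controls it was under 0.05 in 7 of 10 tests and reached 0.0556. Without both doubted controls it was 0.1905 in batch 1 and 0.0101 against the remaining 7 controls. Cxcl13 was 1 of the cytokines that the study chose on these libraries and a plasma antibody array. Its direction here is therefore not independent evidence. The study also reported more CXCL13 protein with WD, in eWAT by western blot and in plasma by ELISA.

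B cell markers (4 genes) summed to between 2.83 and 88.8 CPM in the WD group, 0 and 2.65 CPM in the batch 1 controls and 0 and 6.79 CPM in the batch 2 controls. They were highest in WD replicate 3, where Cxcl13 was in the middle of its group. Cxcr5 had 77, 78, 170, 0 and 60 counts in the WD group, 15, 74, 55 and 0 in the batch 1 controls and 15, 58, 77, 85 and 62 in the batch 2 controls, and WD replicate 4, one of the 2 libraries highest in Cxcl13, was at 0. Its log2 fold changes were 1.01 in batch 1 and 0.30 against the batch 2 controls (FDR 0.9999 and 0.938).

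Cxcl14, a chemokine of epithelia and resting tissues whose receptor is less settled, was detected unevenly. Its counts were 408, 0, 26 and 0 in the batch 1 controls, 292, 84, 106, 0 and 235 in the WD group and 14, 0, 50, 108 and 0 in the batch 2 controls. The highest value of all 14 libraries, 39.8 CPM, was that of control replicate 1 of batch 1, the library with epididymis RNA, and the part of that RNA in this level was not tested. WD libraries had 11.4 ± 8.71 CPM (SD, n = 5) and batch 2 controls 2.615 ± 3.528 CPM (n = 5), a log2 fold change of 2.12 that did not pass the test (SE 1.32, FDR 0.4715). In batch 1 the estimate was -0.03 (SE 1.81). It was 3.97 without control replicate 1 and 3.39 without both doubted controls, and the FDR was 0.9265 and 0.6785.

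Cxcl16, the transmembrane chemokine and lipid scavenger that binds Cxcr6, was the only one of the 7 genes called in any comparison. Its counts were 424, 2, 214 and 187 in the batch 1 controls, 415, 396, 527, 588 and 205 in the WD group, and 222, 77, 141, 159 and 37 in the batch 2 controls. The authors' log2 values were 4.92, 5.41, 5.30, 5.58 and 4.18 in the WD group and 4.075, 3.07, 3.54, 3.72 and 2.24 in the batch 2 controls. The 5 WD libraries all lay above the 5 batch 2 controls, although the lowest WD library (17.1 CPM) was close to the highest control (15.9 CPM). Such an order was found for 4.88% of the 12070 genes tested. Mean levels were 34.9 ± 11.9 CPM and 9.985 ± 4.625 CPM (SD, n = 5 each), a ratio of 3.496.

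The log2 fold change of Cxcl16 between WD and batch 2 controls was 1.80 (SE 0.41, 95% interval 0.94 to 2.67, edgeR FDR 0.0119). It was called in all 16 alternative fits, with an FDR of at most 0.036, and the exact permutation p was 0.00794, the smallest possible here. In that comparison 6 of the 7 genes were tested and 1 was called, against 6.4% of all 12070 genes, and diet and batch cannot be told apart in it. Within batch 1, where both diets were present, the control values of Cxcl16 covered 0.169 to 41.3 CPM and overlapped those of the WD group, and the highest was that of control replicate 1, the library with epididymis RNA, whose part in it was not tested. The log2 fold change there was 0.84 (SE 0.92, 95% interval -1.15 to 2.83, FDR 0.9999, exact permutation p = 0.103). It was 1.73 without control replicate 1, 0.41 without control replicate 2 and 2.33 with limma-voom, and was not called in any of these. Without control replicates 1 and 4 it was 1.95 (FDR 0.616, exact permutation p = 0.0952), with control replicate 2 at only 2 counts among the 2 libraries left. Against all 9 controls the log2 fold change was 1.31 (SE 0.66, FDR 0.712, exact permutation p = 0.022), and that permutation p was under 0.05 in 11 of the 14 tests that left out a library, reaching 0.0601 without WD replicate 4. With all 9 controls, 6 of the 7 genes were tested and 0 were called, while 0.53% of the 12653 genes tested were. Without both doubted controls the log2 fold change of Cxcl16 against the remaining controls was 1.84 (FDR 0.0851, exact permutation p = 0.00884). These comparisons across both batches did not take the batch into account. The study also listed immune and inflammatory genes that were higher with WD in its eWAT sequencing. This result comes from the same libraries and is not independent of that list.

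The 2 sets of controls themselves gave a log2 difference of -0.98 for Cxcl16 (SE 1.01, FDR 0.945), which was -0.0938 without control replicate 1 of batch 1. None of the 6 tested genes was called between them, as was the case for 0% of the 12106 genes tested, where 895 genes had an unadjusted p under 0.05 and DESeq2 called 111 genes and limma-voom 0. The median log2 fold change of the tested CXC genes was 0.84 in batch 1, where that of all tested genes was 0.03, 0.93 against the batch 2 controls, where that of all tested genes was -0.00, and 0.22 between the sets of controls. Within batch 1 none of the 7 genes had all WD libraries above all controls, an order that 3.04% of tested genes showed.

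**Figure D3:**
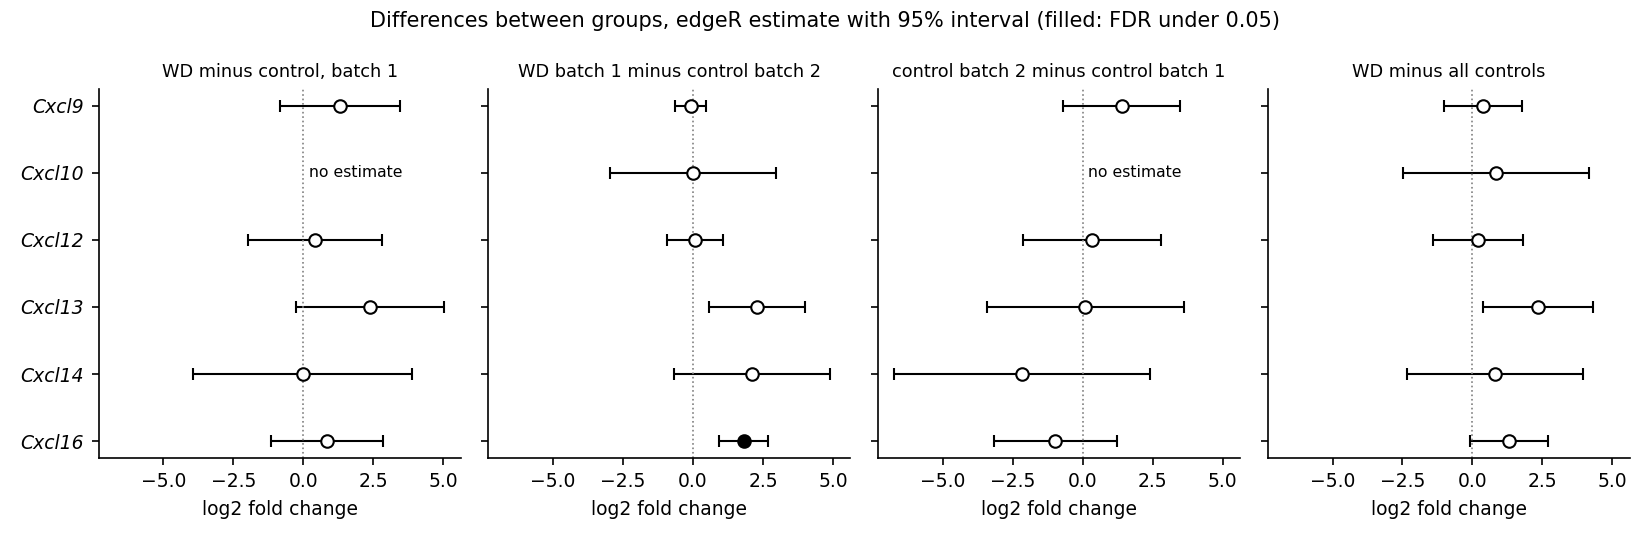
Points are edgeR log2 fold changes (x axis) with 95% intervals as lines for 6 CXC chemokines (y axis) in 4 comparisons, and a filled point marks an FDR under 0.05. Cxcl16 between WD and batch 2 controls (1.80) was the only filled point, the intervals for Cxcl13 began at 0.56 and 0.38 in the comparisons with batch 2 and with all controls, and Cxcl10 had no estimate where the batch 1 controls were at 0.

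Macrophage markers separated the WD group from the batch 2 controls as well. The sum of 7 such genes (Adgre1, Cd68, Csf1r, Mrc1, Itgax, Cd163 and Mertk) was 1101 to 1664 CPM in the WD group and 288 to 600 CPM in the batch 2 controls, without overlap, and 139 to 1265 CPM in the batch 1 controls. Of the 6 that passed the filter against the batch 2 controls, 5 were higher in the WD group, with an FDR of at most 0.0131, and Cd163 was not called. In that comparison 6.4% of the 12070 genes tested were called, and diet and batch cannot be told apart in it. Within batch 1, 5 of these 6 markers had a log2 fold change above 0 (median of the 6, 1.43). None was called there, with an FDR of 0.434 or more. Adgre1, which encodes the macrophage surface protein F4/80, had 277 CPM in the WD group and 42.5 CPM in the batch 2 controls on average. Mertk was at or near 0 in all groups. Leaving aside the 2 doubted controls, the 5 WD libraries had 17.1 to 47.3 CPM of Cxcl16, and the 7 controls, all with at most 677 CPM of the markers, had at most 17.7 CPM. In the doubted libraries, control replicate 1 of batch 1 had the fewest macrophage markers (139 CPM) and 41.3 CPM of Cxcl16, while control replicate 4 of batch 1 had 1265 CPM of the markers, no Cxcl13 and 14.1 CPM of Cxcl16. Adipocyte markers (5 genes) also separated these groups, at 10430 to 14910 CPM in the WD group and 20670 to 25290 CPM in the batch 2 controls. They summed to 1956 CPM in control replicate 1 of batch 1 and to 13040 to 15150 CPM in the other batch 1 controls. Against the batch 2 controls Adipoq, Plin1, Cidec and Lipe were lower in the WD group, with an FDR of at most 0.0107, and Lep, which encodes leptin, was higher (FDR 0.00611). Within batch 1 the log2 fold changes of Adipoq, Plin1, Cidec, Lipe and Lep were -0.15, 0.30, -0.01, 0.40 and 1.38, and none was called. For batch 2 minus batch 1 controls they were 1.23, 1.47, 0.84, 1.16 and 0.07, also not called. In bulk tissue, more cells of a type and more RNA per cell cannot be told apart, and the part of macrophage and adipocyte numbers in these levels was not tested.

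**Figure D4:**
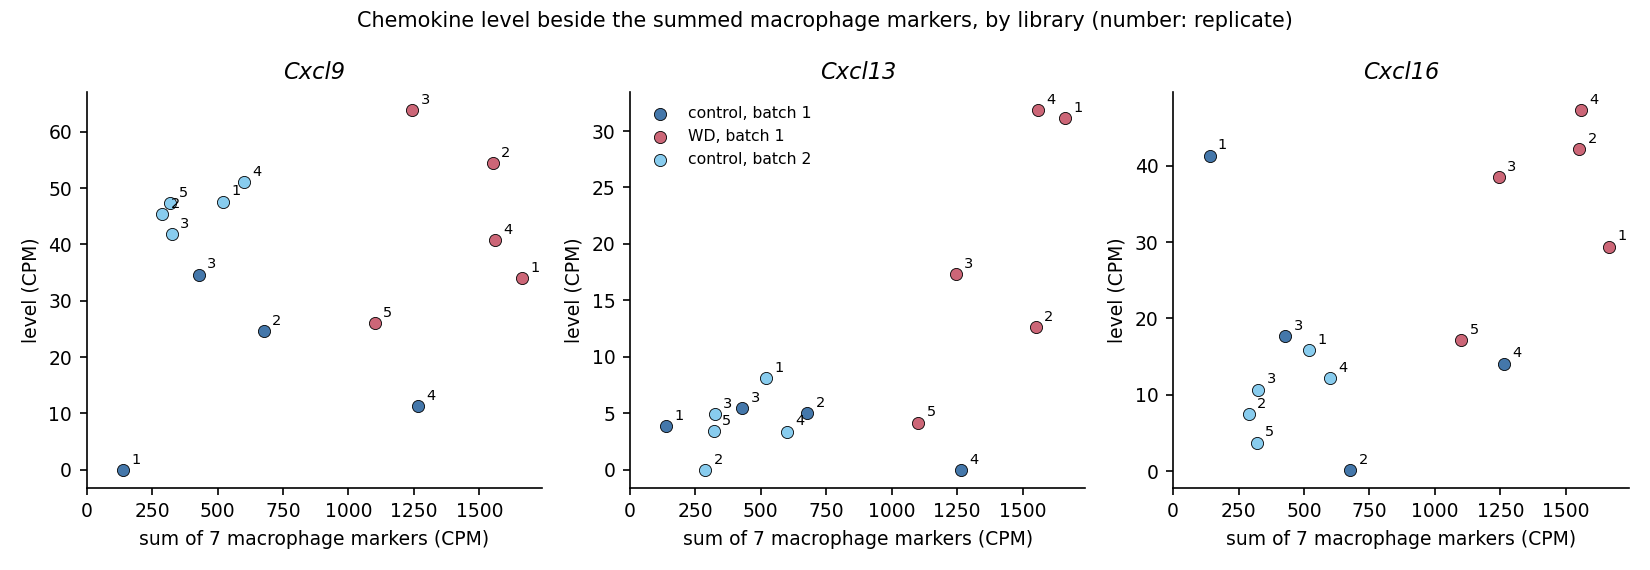
The level of Cxcl9, Cxcl13 or Cxcl16 in CPM (y axis) is plotted against the summed level of 7 macrophage markers in CPM (x axis), with 1 point per library coloured by group and numbered by replicate. WD libraries lie at 1101 CPM of markers or more, batch 2 controls at 600 CPM or less, and control replicates 1 and 4 of batch 1 lie at 139 and 1265 CPM.

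The other genes of the CXC chemokine system were taken from a list of 30, all present in the table. Between 19 and 20 of them passed the filter in each comparison, and 1, Cxcr4, was called against the batch 2 controls, with 0 called in the others. The median log2 fold change of the tested ones was 0.01 in batch 1 and 0.10 against the batch 2 controls. Among the other ligands, Pf4, the platelet chemokine also made by macrophages, was the most abundant at 195 ± 103.5 CPM in the WD group, 216 ± 179 CPM in the batch 1 controls and 134 ± 41.1 CPM in the batch 2 controls (SD, n = 5, 4 and 5). Cxcl3 had no count in any library, and Cxcl5 had 58 counts in control replicate 2 of batch 1, the library that also had the highest Cxcl1, and 0 in the other 13. Cxcl2, a close relative of Cxcl1, had at most 60 counts.

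Of the receptors, Cxcr1 had no count and Cxcr6, the receptor of Cxcl16, had between 0 and 70 counts with none in 8 of the 14 libraries, so that neither was tested. Ackr2, a scavenger of inflammatory CC chemokines, had no count in the batch 1 controls, 3.35 ± 1.93 CPM in the WD group and 3.195 ± 1.395 CPM in the batch 2 controls (SD, n = 5 each). Adam10, the protease known to shed Cxcl16 from the membrane, had 58.0 ± 9.78 CPM in the WD group (SD, n = 5), 73.45 ± 43.42 CPM in the batch 1 controls (n = 4) and 45.2 ± 11.6 CPM in the batch 2 controls (n = 5). Its FDR was 0.498 for WD against the batch 2 controls. Mmp2, a matrix protease that can cut Cxcl12, was at 25.8 ± 14.9 CPM in the WD group, 8.25 ± 12.3 CPM in the batch 1 controls and 8.03 ± 3.97 CPM in the batch 2 controls (FDR 0.0608 against the batch 2 controls). For the interferon gamma and NF-kB genes, 6 of 7 were tested and none was called in any comparison, with median log2 fold changes of -0.03 in batch 1 and 0.12 against the batch 2 controls.

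**Figure D5:**
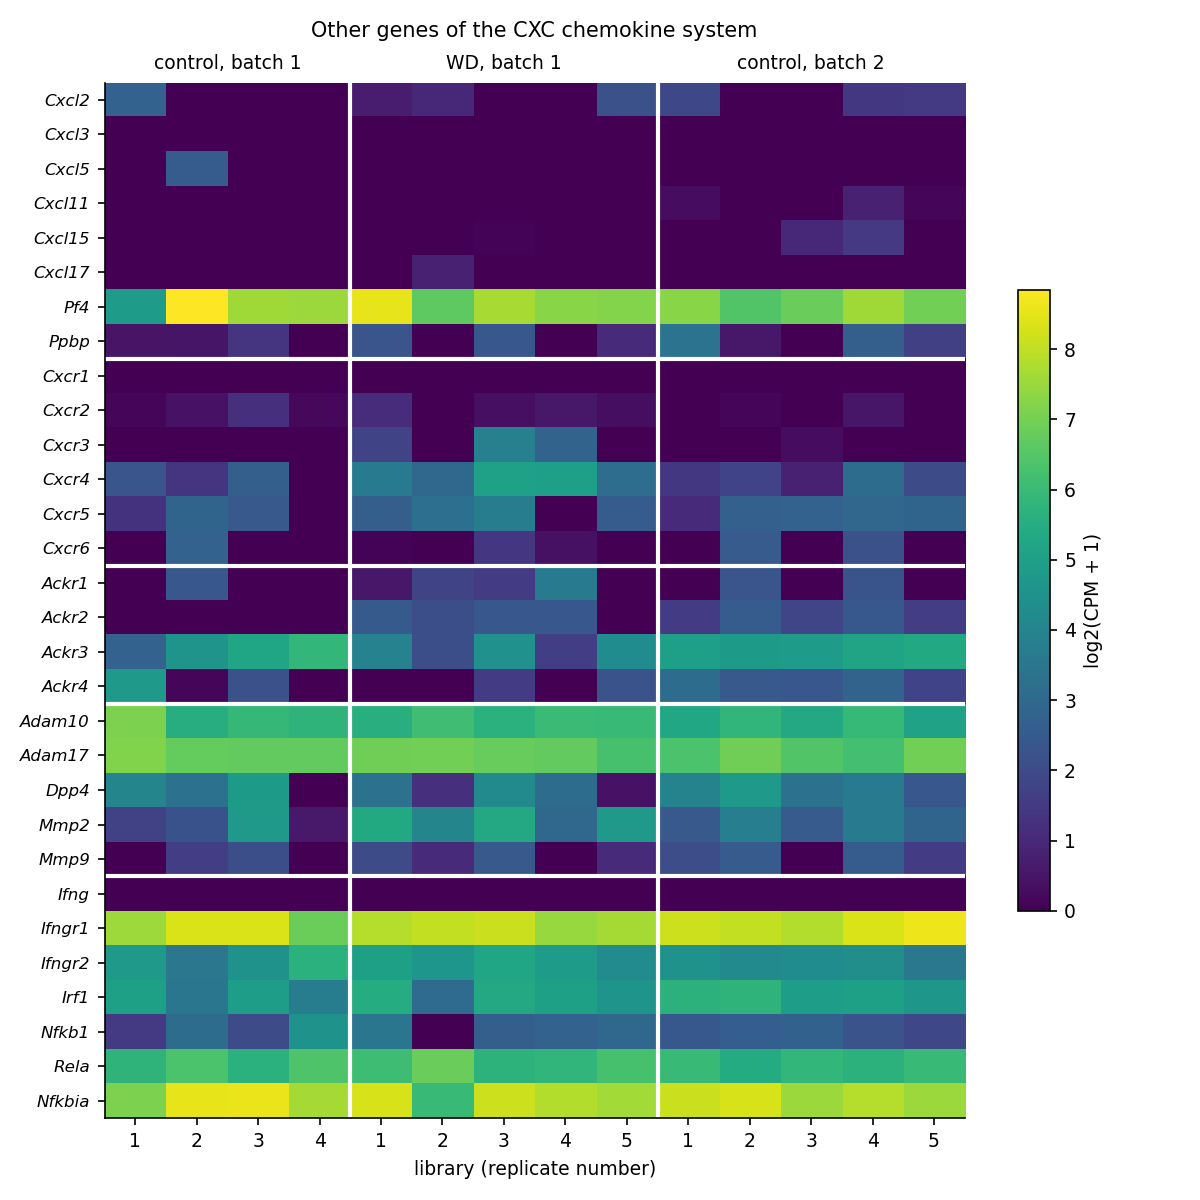
Colour shows log2(CPM + 1) for the 30 other genes of the CXC chemokine system (y axis) in the 14 libraries (x axis, by replicate number within each group), and white lines separate groups of libraries and of genes. Pf4, Ifngr1 and Nfkbia are high in nearly all libraries, Cxcl3, Cxcr1 and Ifng are at 0 in all, and Cxcr4 is at 6.81 CPM or more in each WD library.

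The genes with the most similar pattern over the 14 libraries were sought among 9864 genes with a mean of at least 5 CPM, by Pearson's r of log2(CPM + 1) and as a description only. Libraries share depth, batch and tissue makeup, and the libraries at 0 weigh heavily in r. For Cxcl9 they were Olfm1, Aspa and Pdzrn3 (r = 0.95 each), with Spearman's rho from 0.33 to 0.73. Cxcl12 was closest to S1pr1 (r = 0.95, rho = 0.82), a sphingosine 1-phosphate receptor of endothelium and lymphocytes, then to Lrrn4cl and Edem3 (r = 0.94 each). For Cxcl13 the nearest were Cnih4, Evi2a and Metrnl (r from 0.85 to 0.87). Cxcl14 resembled Mxd3, Mmgt2 and Prelid1 (r from 0.85 to 0.88), and Cxcl16 was closest to Hdgfrp3 (r = 0.95, rho = 0.92), followed by Pcolce and Lbh (r = 0.89 and 0.88). None of these 5 chemokines was among the nearest genes of another, and Cxcl1 and Cxcl10, below 5 CPM on average, were not searched.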

How the data were processed

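Epididymal fat RNA in 14 libraries was measured by QuantSeq 3′ mRNA sequencing (single-end). The authors used Bowtie2 for alignment, and bedtools to count both unique and multiple alignments per gene; the submitters' processing notes name mm10, and tool versions are not given in the sources used here. The deposited table holds these raw read counts and log2 values, which the authors computed in edgeR as TMM-scaled CPM plus 1. Recomputed log2(CPM + 1) differed from the deposited log2 values by at most 0.0978. Molecular identifiers are not mentioned, so that depth covers counting error only. Multiple alignments can count a read at more than 1 gene.

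Groups came from the sample labels (diet, batch, replicate). The labels number the libraries and do not say that each came from its own mouse, so that p-values measure the spread between libraries. Counts were tested with edgeR 4.0.16 (TMM, filterByExpr, quasi-likelihood test, no covariates, Benjamini-Hochberg adjustment over all genes tested, FDR 0.05) in R 4.3.3. Comparisons were WD with batch 1 controls, WD with batch 2 controls, batch 2 with batch 1 controls, and WD with all 9 controls, and they share libraries. Two-sided exact permutation tests compared mean log2(CPM + 1) for each gene (28 tests, unadjusted). Levels are CPM with TMM factors over 14 libraries. Alternatives were scaling by library totals or by upper quartiles, no or another filter on low counts, DESeq2 1.42.0, limma-voom 3.58.1, a batch term, the replicate number as a block, a pseudocount of 0.1, the deposited log2 values and each library left out. The fits were tested on simulated data. Python 3.11.15, numpy 2.4.6, pandas 2.3.3 and matplotlib 3.10.9 were used for values and plots.

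The genes, the list of 30 pathway genes and the cell type markers were chosen with earlier results of these data known, and 1 further gene of that list is not reported here. Named genes were the 7 chemokines, these lists, and per chemokine with a mean of at least 5 CPM the 3 genes with the highest Pearson correlation, passing over predicted genes. Of 22197 symbols shared with GENCODE, 22093 (99.5%) had overlapping positions.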

Additional observations from a re-analysis of the deposited data

Results flagged for a closer look

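In 20 groups of 4 or 5 libraries, the highest or lowest log2(CPM + 1) value of each chemokine was checked against the rest of its group, and 2 values stood far from the others, where chance gives about 1. Cxcl1 was 1.86 in control replicate 2 of batch 1 (31 counts), while the other 3 batch 1 controls had no count. The same library held the 58 counts of Cxcl5, another neutrophil attractant, and the largest sum of neutrophil markers (313 CPM). Their part in the level of Cxcl1 was not tested.

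Cxcl13 was 0 in control replicate 4 of batch 1 (0 counts), while the other batch 1 controls lay between 2.29 and 2.69. This library had counts in 7999 genes, the fewest of the 14, and also had no count of Cxcl12 and Cxcl14.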

How the results depend on the processing

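Cxcl16 remained called against the batch 2 controls in 16 of 16 alternatives, with log2 fold changes from 1.59 to 2.03. With DESeq2, Cxcl13 was called as well (FDR 0.0337), which made 2 chemokines called there. No chemokine was called in an alternative of the other comparisons. Genes called in batch 1 numbered 114 with DESeq2, 1 with all 14 libraries and a batch term, 108 without the 2 doubted controls, and 0 to 48 with a library left out. Between the sets of controls there were 111 with DESeq2, 28 without the doubted controls and 0 to 2 with a library left out. Against all controls there were 236 with DESeq2, 223 with limma-voom, 619 without the doubted controls and 28 to 289 with a library left out.

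Directions changed only in comparisons in which that chemokine was not called, and the cause was not tested. In batch 1, Cxcl12 was -0.46 without the doubted controls and -0.0153 to 0.95 with a library left out. Cxcl14 there was 0.21 with library totals, 2.78 with limma-voom, 0.0022 with a batch term, 3.39 without the doubted controls and -0.47 to 3.97 with a library left out. Against the batch 2 controls, Cxcl10 was -0.0099 without a filter and -0.88 with limma-voom. With a library left out, Cxcl9 was -0.27 to 0.0496, Cxcl10 -1.09 to 0.33 and Cxcl12 -0.18 to 0.40. Between the sets of controls, without the doubted controls Cxcl12 was -0.52, Cxcl13 -0.40, Cxcl14 1.27 and Cxcl16 0.15, and with limma-voom Cxcl14 was 0.071 and Cxcl16 0.57. With a library left out, Cxcl12 was -0.0551 to 0.92, Cxcl13 -0.35 to 0.41 and Cxcl14 -3.29 to 1.84. With a pseudocount of 0.1 the mean log2 differences of Cxcl1 and Cxcl16 there became 0.12 and 0.31. Against all controls, Cxcl12 was -0.12 without the doubted controls and -0.0337 to 0.43 with a library left out, and Cxcl10 was -0.26 to 1.32.

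Replicate numbers did not pair the libraries, as same-numbered libraries deviated together with correlations of -0.04 to 0.08. With the replicate number as a block, 0, 594 and 0 genes were called in the first 3 comparisons, Cxcl16 was again the only chemokine called (FDR 0.0149), and Cxcl14 was 1.98 in batch 1, Cxcl10 -0.87 against the batch 2 controls, and Cxcl14 0.68 and Cxcl16 0.13 between the sets of controls. Cxcl1 and Cxcl10 were at or under 3 counts in 10 and 5 of the 14 libraries, and the part of depth in this was not tested.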
